A study of Mus musculus with 18 samples.

Results

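Genes of conjugation and detoxification enzymes were examined in mice that lack caveolin 1 (Cav1 KO) and in wild-type mice (WT). The set holds every array probe whose number names a mouse gene with a symbol beginning Gst, Mgst, Ugt, Sult, Aldh, Akr1, Fmo plus a digit, or Ces. These were 59 probes of 42 genes, out of 45992 probes on the array, of which 9807 could be paired with a gene and stood for 8109 genes. They comprised 24 probes of 14 Ugt genes, 12 probes of 9 Gst genes, 6 probes of 5 Akr1 genes, 6 probes of 4 Ces genes, 4 probes of 4 Aldh genes, 3 probes of 3 Fmo genes, 3 probes of 2 Sult genes and 1 probe of 1 Mgst gene.

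RNA of 3 sample types was hybridised to single-colour Illumina Mouse-6 V1 bead arrays, with 3 KO and 3 WT arrays of each type and 18 in all. Livers of KO and WT mice were taken 24 h after food withdrawal, and adipose tissue of KO and WT mice 11 h after food withdrawal, so both genotypes and both tissues were fasted, for different times. Mouse embryonic fibroblasts (MEFs), connective tissue cells grown in culture, came from KO and WT primary lines 24 h after plating. Strain, age and sex, the knockout allele, the adipose depot and the number of MEF lines were not given in the sources used here. The labels number the arrays but do not say that each came from its own animal or culture, and the p-values then rest on array-to-array spread alone, which may be technical.

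Drug and endogenous compound clearance runs in steps. Flavin monooxygenases (Fmo), aldehyde dehydrogenases (Aldh), aldo-keto reductases (Akr1) and carboxylesterases (Ces) oxidise, reduce or hydrolyse a compound. Glutathione S-transferases (Gst, and the membrane-bound Mgst) then join it to glutathione, UDP-glucuronosyltransferases (Ugt) to glucuronic acid and sulfotransferases (Sult) to sulfate. The liver is the main site of these reactions. The genes of the Ugt1a family lie in a single locus, where each has its own promoter and first exon, spliced to downstream exons that all share; a probe in the shared part reads the whole family.

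Cav1 itself was measured first. In adipose tissue its raw intensity was 1940 to 3167 on KO arrays and 25664 to 50304 on WT arrays, and in MEFs 788.7 to 1690 on KO and 9766 to 10821 on WT arrays. In liver, where the signal was dim, it was 109.6 to 133.7 on KO arrays, 1 of 3 of them detected, and 158 to 186 on WT arrays, all 3 detected (log2 difference -0.23, limma adjusted p = 0.0609). The hepatocyte list had 6 of 6 genes with a probe above the detection filter in liver, 4 of 6 in adipose tissue and 3 of 6 in MEFs. The adipocyte list had 3 of 3 in adipose tissue and 3 of 3 in liver, and the fibroblast list 5 of 6 in MEFs, 5 of 6 in adipose tissue and 2 of 6 in liver. Detection thus did not separate the tissues, while the summed raw intensity of the hepatocyte list was 129841 to 156827 over all liver arrays and 2212 to 22509 over all other arrays. Liver WT replicate 1 was hybridised on a different slide from the other 5 liver arrays.

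Values below are log2 normalized intensities, and differences are KO minus WT, with the standard error (SE) from limma and a p adjusted over all tested probes of the tissue. A probe was tested if its detection p was under 0.05 on at least 3 of the 6 arrays, and called if its adjusted p was under 0.05. Intensities of different probes are not comparable as levels. In liver 39 of 59 member probes (66.1%) passed the detection filter, against 27.4% of all probes, and they stood for 30 genes. In adipose tissue 26 (44.1%, against 34.8% of all probes) and in MEFs 20 (33.9%, against 30.6%) passed. Of the member probes, 17 were tested in all 3 tissues, 14 in liver alone, 2 in adipose tissue alone and 17 nowhere. The Ces and Fmo probes were tested in liver alone, and no Sult probe was tested anywhere, among them the probe of Sult2a1, a hydroxysteroid sulfotransferase.

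The liver held the widest changes: Ugt1a9 fell, and Gsta1, Gsta2, Gstm1 and Ugt2b35 were higher on every KO array without being called. Akr1a1 was called lower too, but by a small difference of -0.18, and its call was lost in 15 of 16 alternative runs. The 2 called probes were 5.13% of the 39 tested, both lower in KO, while 4.69% of all 12574 tested probes were called, 1.96% higher and 2.73% lower. An unadjusted p under 0.05 was found for 12 members (30.8%), against 22.2% of all probes. KO and WT arrays did not overlap for 10 member probes (25.6%), 4 higher and 6 lower in KO, against 27.9% of all probes, 13.1% higher and 14.8% lower. Among the 6 lower, a probe of Ugt1a9 and a probe of Ugt1a10 passed the detection filter through the WT arrays alone. The median difference was 0.011 over the members and -0.0050 over all tested probes, with 20 of 39 above 0, against 48% of all probes. In bulk tissue, fewer cells of a type and less RNA per cell cannot be told apart.

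The largest difference among the members lay in the Ugt1a locus on chromosome 1. The promoters of Ugt1a9 and of Ugt1a10, which has 1 probe lower on every KO liver array and 1 that was not, are shown beside that of Ugt1a6a, whose probe was not lower. They are RefSeq sequences of build GRCm38.p6, plus strand, from 250 bases before to 50 after the start: chr1:88070529-88070828 for Ugt1a9, chr1:88055161-88055460 for Ugt1a10 and chr1:88134559-88134858 for Ugt1a6a. Capitals mark GTTAAT on either strand, where the minus strand match reads ATTAAC; it is the core of the site of HNF1, a liver transcription factor.
Ugt1a9: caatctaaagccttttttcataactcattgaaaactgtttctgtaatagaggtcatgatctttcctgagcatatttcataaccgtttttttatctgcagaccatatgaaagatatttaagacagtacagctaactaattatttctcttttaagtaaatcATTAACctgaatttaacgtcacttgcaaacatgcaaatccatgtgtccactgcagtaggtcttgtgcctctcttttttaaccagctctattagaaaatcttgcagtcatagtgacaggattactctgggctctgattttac
Ugt1a10: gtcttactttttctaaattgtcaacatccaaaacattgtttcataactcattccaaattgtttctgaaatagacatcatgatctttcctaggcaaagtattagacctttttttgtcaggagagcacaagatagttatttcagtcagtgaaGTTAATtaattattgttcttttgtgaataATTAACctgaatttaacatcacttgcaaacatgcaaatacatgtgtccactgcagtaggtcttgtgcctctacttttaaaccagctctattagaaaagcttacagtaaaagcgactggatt
Ugt1a6a: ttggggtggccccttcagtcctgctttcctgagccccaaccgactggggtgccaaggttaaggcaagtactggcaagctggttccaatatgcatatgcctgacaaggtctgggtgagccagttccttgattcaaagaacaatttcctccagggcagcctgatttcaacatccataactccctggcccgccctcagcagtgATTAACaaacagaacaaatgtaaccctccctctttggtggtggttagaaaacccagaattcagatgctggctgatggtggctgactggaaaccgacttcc
The Ugt1a9 and Ugt1a10 promoters share an identical run of 32 bases, which begins at -52 from the Ugt1a9 start and at -32 from the Ugt1a10 start. The longest run that Ugt1a9 shares with Ugt1a6a is 11 bases. GTTAAT begins at -91 in Ugt1a9, at -100 and -71 in Ugt1a10 and at -50 in Ugt1a6a, so all 3 promoters shown hold it. It occurs in 7.1% of all 32851 promoters in the RefSeq table and in 7 of the 39 promoters of members.

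Ugt1a9, whose enzyme glucuronidates phenols and many drugs, fell in KO liver. Its probe scl00394434.2_40-S read 6.97, 6.71 and 6.90 on KO arrays and 8.98, 9.61 and 8.32 on WT arrays, a difference of -2.11 ± 0.32 (SE, 3 arrays a group, limma adjusted p = 0.0302), 4.31-fold lower in KO. All 3 KO arrays lay below all 3 WT arrays, and the WT arrays were more spread. The call was lost without KO replicate 2 (adjusted p = 0.102), without KO replicate 3 (0.0882) and without WT replicate 1, the array on its own slide (0.0812, which is also the value within the slide that holds both genotypes); the difference stayed between -2.44 and -1.80 when single arrays were left out. It was -2.68 with background taken from the median (limma adjusted p = 0.00643) and -3.42 with the authors' normalized values (limma adjusted p = 0.0279). With slide as a block the adjusted p was 0.0843. The call was also lost with no detection filter and with the replicate number as a block, and in 7 of 16 alternatives in all.

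A second Ugt1a9 probe and a Ugt1a10 probe were also lower on every KO array, without being called. Both passed the detection filter only through the WT arrays. The filter thus largely set their direction and lack of overlap, and they add no independent support. The Ugt1a9 probe scl0394434.1_78-S was not detected on any KO array, where it read 6.55, 6.55 and 6.59, and was detected on all 3 WT arrays at 7.06, 7.70 and 7.02, at least 1.54-fold lower in KO (adjusted p = 0.104). The Ugt1a10 probe scl00394430.1_58-S read 6.52, 6.53 and 6.52 on KO arrays, none detected, and 7.59, 8.39 and 7.17 on WT arrays, all detected, at least 2.11-fold lower in KO (adjusted p = 0.0879). On all 3 probes WT replicate 2 was the highest WT array. Both bounds set the KO side at the dimmest signal that still counts as detected.

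The other 10 tested Ugt1a probes did not follow Ugt1a9. Bright probes among them were Ugt1a6a at 12.79, 13.50 and 13.64 on KO and 12.94, 12.62 and 12.65 on WT arrays, and Ugt1a6b probe scl0394435.7_126-S at 12.41, 13.20 and 13.07 on KO and 12.56, 12.47 and 12.52 on WT arrays. Their differences were 0.57 ± 0.24 and 0.38 ± 0.21 (limma adjusted p = 0.240 and 0.365), and their groups overlapped: KO replicate 1 lay among the WT arrays for Ugt1a6a and below all of them for Ugt1a6b. Ugt1a7c probe scl00394432.2_137-S was also bright, with means of 12.68 on KO and 12.58 on WT arrays, and differed by only 0.10 ± 0.20. The other Ugt1a10 probe, scl0394430.5_296-S, differed by 0.49 ± 0.36. Ugt1a1, which glucuronidates bilirubin, differed by 0.09 ± 0.13, with 7.12, 7.65 and 7.41 on KO and 7.32, 7.29 and 7.29 on WT arrays. The 3 Ugt1a5 probes ranged from -0.02 to 0.09. Probes of 1 gene thus disagreed for Ugt1a10, and since probe sequences were not used here, which probes read shared exons is not known; the names of single Ugt1a genes are uncertain for that reason.

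**Figure D1:**
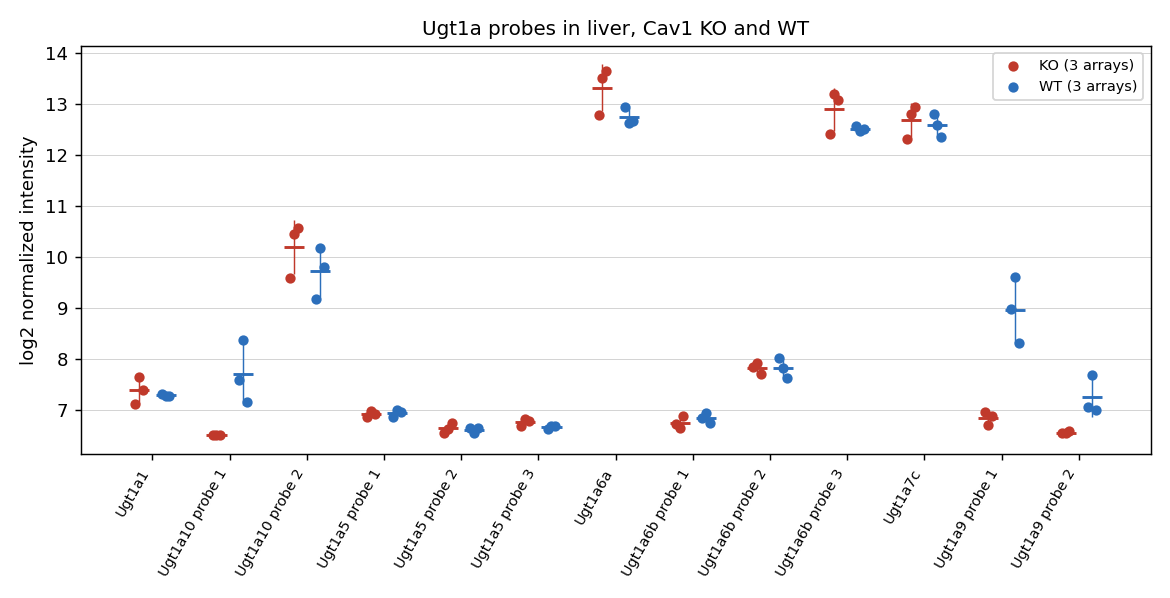
Log2 normalized intensity (vertical axis) of each of the 13 tested Ugt1a probes in liver, KO arrays left and WT arrays right; points are arrays, horizontal lines group means and vertical lines ± 1 SD (3 arrays each). Both Ugt1a9 probes and Ugt1a10 probe 1 have all KO arrays below all WT arrays, while the other 10 probes overlap.

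Of the Ugt2 genes, Ugt2b35 read 10.18, 10.35 and 10.72 on KO arrays and 9.64, 9.82 and 9.78 on WT arrays, a difference of 0.67 ± 0.14 (adjusted p = 0.0635). The groups did not overlap, and without KO replicate 1 the difference was 0.80 with adjusted p = 0.0311. Ugt2a1 differed by 0.01 ± 0.04. Ugt2b5, Ugt2b37, Ugt2b38 and Ugt3a1 were not tested in liver.

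Of the Gst genes, those of the alpha class and Gstm1 of the mu class were higher on every KO liver array than on any WT liver array, none of them called. The promoters of Gsta1 and Gsta2, whose enzymes conjugate oxidised lipids and drugs, are given because both genes differed alike. They are RefSeq sequences of build GRCm38.p6, chr9:78230419-78230718 on the plus strand and chr9:78347096-78347395 on the minus strand; capitals mark GCGTG, the core of the site of the aryl hydrocarbon receptor.
Gsta1: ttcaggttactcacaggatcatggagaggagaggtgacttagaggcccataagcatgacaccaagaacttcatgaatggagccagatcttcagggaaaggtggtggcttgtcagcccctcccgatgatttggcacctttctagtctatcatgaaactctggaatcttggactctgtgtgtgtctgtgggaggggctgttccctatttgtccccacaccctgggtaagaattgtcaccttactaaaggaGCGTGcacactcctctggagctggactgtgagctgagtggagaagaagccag
Gsta2: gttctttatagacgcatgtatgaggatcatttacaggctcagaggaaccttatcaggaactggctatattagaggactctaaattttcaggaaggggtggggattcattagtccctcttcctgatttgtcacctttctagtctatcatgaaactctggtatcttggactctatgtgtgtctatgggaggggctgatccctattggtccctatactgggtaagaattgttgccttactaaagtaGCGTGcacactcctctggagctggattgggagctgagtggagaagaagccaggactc
The promoters share an identical run of 29 bases, and GCGTG begins at -2 in Gsta1 and at -7 in Gsta2. It was found on either strand in 32.4% of all promoters in the table and in 9 of the 39 promoters of members. Of the other motifs searched, TGACNNNGC, the core of the antioxidant response element, was in 12.4% of all promoters and in 0 of 39, and TATAAA was in 13.6% of all and in 6 of 39. All 4 motifs were sought on both strands, matches of different motifs did not overlap in the promoters shown, and no match says only that the letters are not in this window.

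Gsta2 read 9.96, 9.02 and 9.96 on KO arrays and 7.90, 8.30 and 8.50 on WT arrays in liver, a difference of 1.41 ± 0.30, 2.66-fold (limma adjusted p = 0.0643). Gsta1 read 8.76, 7.63 and 8.63 on KO arrays and 7.08, 6.99 and 7.07 on WT arrays, a difference of 1.29 ± 0.30, 2.45-fold (limma adjusted p = 0.0758). KO replicate 2 was the lowest KO array on both, and without it both were called (adjusted p = 0.0424 for Gsta2 and 0.00601 for Gsta1). The 2 genes are close copies, so a probe of 1 may read the other. Gstm1, an abundant mu-class transferase, read 14.09, 13.49 and 14.43 on KO arrays and 13.10, 12.78 and 13.03 on WT arrays, a difference of 1.03 ± 0.24, 2.04-fold (adjusted p = 0.0793, and 0.0424 without KO replicate 2).

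The remaining mu-class probes overlapped. Gstm3 read 7.12, 6.82 and 8.73 on KO arrays and 6.68, 6.69 and 6.84 on WT arrays, so its difference of 0.82 ± 0.50 rested on KO replicate 3. The 2 Gstm2 probes differed by -0.04 and 0.28. The bright pi-class probes overlapped too, with differences of -0.15 and -0.09 for Gstp1 and -0.02 for Gstp2, genes of near-identical sequence that the probes may not tell apart.

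Transferases of other classes were lower in KO liver without being called. Gstk1, the kappa-class enzyme of mitochondria and peroxisomes, read 12.32, 12.34 and 12.35 on KO arrays and 12.68, 12.60 and 12.87 on WT arrays, a difference of -0.38 ± 0.07 (adjusted p = 0.0516). The groups did not overlap. Gstt2 of the theta class read 9.96, 9.85 and 9.58 on KO arrays and 9.99, 10.21 and 10.27 on WT arrays, a difference of -0.36 ± 0.12 (adjusted p = 0.166). Mgst3, a microsomal enzyme that also reduces lipid peroxides, differed by -0.27 ± 0.17 with overlapping groups.

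**Figure D2:**
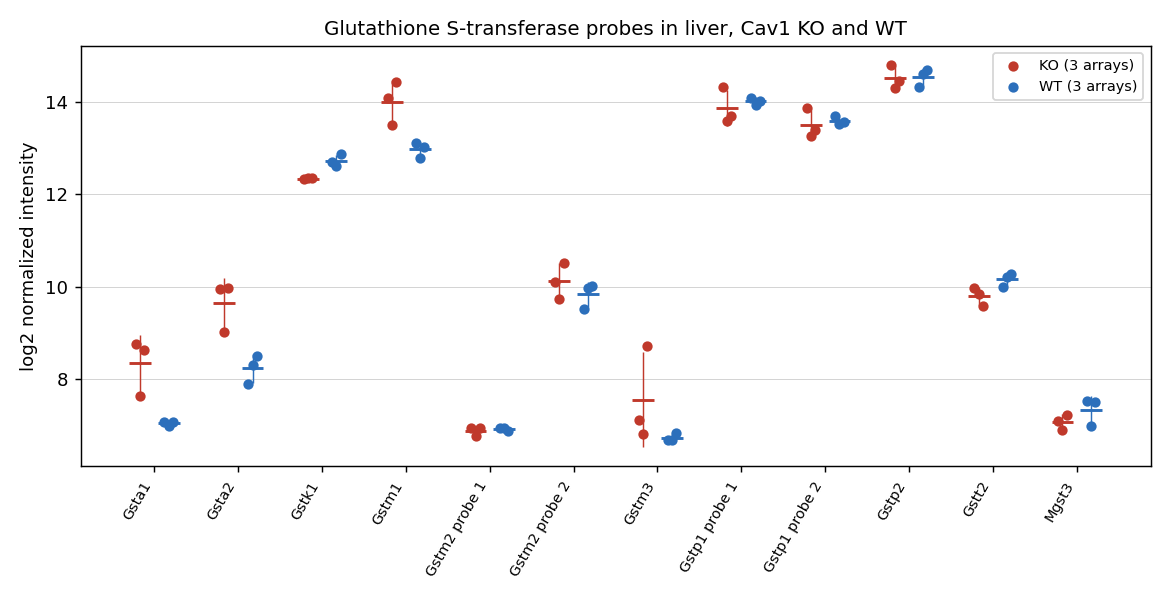
Log2 normalized intensity (vertical axis) of the 12 tested Gst and Mgst probes in liver, KO arrays left and WT arrays right; points are arrays, horizontal lines group means and vertical lines ± 1 SD (3 arrays each). Gsta1, Gsta2 and Gstm1 have all KO arrays above all WT arrays, Gstk1 and Gstt2 all KO arrays below, and the rest overlap.

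Among the enzymes that oxidise, reduce or hydrolyse, the single called gene was Akr1a1, an aldehyde reductase. It fell by a small amount in KO liver, reading 10.94, 10.94 and 10.98 on KO arrays and 11.14, 11.12 and 11.14 on WT arrays, a difference of -0.18 ± 0.03 (adjusted p = 0.0498). The call was lost whichever array was left out (adjusted p 0.0777 to 0.173), and with median centring in place of quantile normalization the difference was -0.068 with adjusted p = 0.586. Akr1e1 differed by -0.21 ± 0.10 (0.026 with median centring), Akr1b10 by -0.06 ± 0.06 and Akr1b3, aldose reductase, by 0.13 ± 0.14.

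The other genes of this kind did not pass the test. Ces1c, a carboxylesterase that liver secretes into plasma, read 11.86, 12.59 and 12.80 on KO and 11.87, 11.69 and 11.49 on WT arrays (difference 0.73 ± 0.26, adjusted p = 0.173). KO replicate 1 lay within the WT range, and without it the difference was 1.01 (adjusted p = 0.0215). Ces3a differed by -0.32 ± 0.27, and the 2 Ces3b probes disagreed in sign at -0.12 and 0.15. Fmo5 averaged 7.77 ± 0.21 on KO and 7.23 ± 0.30 on WT arrays (SD, n = 3 each; difference 0.54 ± 0.18, limma adjusted p = 0.162). Aldh1a1, a retinal dehydrogenase, differed by 0.19 ± 0.30 and spanned 12.97 to 14.03 on KO and 13.21 to 13.60 on WT arrays. Aldh8a1 differed by -0.02 ± 0.05 and Aldh3b1 by 0.06 ± 0.07.

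Other genes of the pathway gave the following picture in liver. Among targets of the xenobiotic receptors CAR and PXR outside the set, all 10 tested probes, of 8 genes, were above 0 (median 0.57, against -0.0050 over all probes). Of them 8 had no overlap, where 13.1% of all probes were higher without overlap, and 1, Cyp2c29, was called higher, as 1.96% of all probes were. A rise of such genes was already known for these data, so the count is no independent evidence. NRF2 is a regulator of antioxidant response genes, and of its targets outside the set 6 of 11 probes were above 0 and 0 were called (median 0.0061). Of 7 further detoxification enzyme probes, Dhrs4, a carbonyl reductase, was called lower at -1.06 ± 0.14 (adjusted p = 0.0222). Tpmt, the methyltransferase of thiopurine drugs, was higher without overlap at 0.76 ± 0.21 and was not called (limma adjusted p = 0.112). The lists of cofactor supply, conjugate transporters and xenobiotic receptors and regulators had 3 tested probes each and 0 called, with 1, 1 and 3 of them above 0. Of genes that male mouse liver expresses more, 3 of 10 probes were above 0 and 0 were called. That list includes both probes of Gstp1, itself a member of the set. It also includes Mup1, whose normalized mean was 15.91 in both genotypes. Quantile normalization gives a probe of equal rank on every array the same value, so this equality is no result. Raw intensity of Mup1 was 58076.5 to 61597.5 on KO and 60607.7 to 65651.8 on WT arrays. Of the 3 above 0, Eif2s3y and Kdm5d are genes of the Y chromosome. The count is therefore no measure of male-type liver expression. Of genes that female liver expresses more, 2 of 3 tested probes were above 0, and the third, Acot3, an acyl-CoA thioesterase, was called lower at -3.07 ± 0.25 (limma adjusted p = 0.00727). The 2 above 0, of Cyp2a4 and Cyp3a41a, were already counted among the CAR and PXR targets, so they are no separate observation.

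Blood markers moved with genotype in liver: all 3 haemoglobin probes lay lower on every KO array, with summed raw intensity of 4468 to 16369 on KO and 20647 to 34850 on WT arrays, and Hbb-b2 was called lower. Fibroblast markers were above 0 in 3 of 3 probes (5887 to 9305 on KO, 4190 to 5748 on WT arrays), with Col1a1 and Postn not detected on any liver array. These probes stood for only 2 genes, Dcn and Col3a1. The normalized values of the groups overlapped on each of them, and 0 were called. The part of either in the liver differences was not tested.

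In adipose tissue none of 26 tested member probes was called, with 6 (23.1%) at an unadjusted p under 0.05, while of all 15968 tested probes 0.407% were called and 13.2% had such a p. The groups did not overlap for 7 (26.9%), 2 higher and 5 lower in KO, against 19.6% of all probes, 8.8% higher and 10.8% lower. Mgst3 had the largest difference, reading 12.95, 13.18 and 13.13 on KO and 11.94, 12.40 and 12.08 on WT arrays (0.95 ± 0.14, 1.93-fold, adjusted p = 0.0811).

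The Gst and Akr1 families lay mostly below 0 in adipose tissue. All 5 Akr1 probes and 7 of 9 Gst probes were negative, while 47.9% of all tested probes were above 0. Gstm1 read 12.32, 12.14 and 12.55 on KO and 12.78, 13.08 and 12.99 on WT arrays (-0.61 ± 0.13, adjusted p = 0.171). Gstm2 probe scl014863.1_325-S read 13.77, 13.65 and 13.62 on KO and 14.01, 13.87 and 13.98 on WT arrays (-0.28 ± 0.06, adjusted p = 0.163). Both had all KO arrays below all WT arrays.

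Akr1b10, known in humans as a reductase of retinal and other aldehydes, read 10.04, 10.41 and 10.43 on KO and 11.15, 10.98 and 10.97 on WT arrays (-0.74 ± 0.12, adjusted p = 0.109). Its second probe differed by -0.09 ± 0.05 with overlapping groups, so the 2 probes differed in size. Akr1b3 read 12.16, 12.31 and 12.07 on KO and 12.46, 12.56 and 12.37 on WT arrays (-0.28 ± 0.08, adjusted p = 0.251). Akr1b3, Akr1b10 and Gstk1 lie on chromosome 6, and whether their position bears on their differences was not tested.

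The bright Ugt1a probes were above 0 in adipose tissue. Ugt1a6a read 12.14, 12.20 and 12.30 on KO and 11.44, 11.75 and 12.02 on WT arrays (0.47 ± 0.15, adjusted p = 0.304), without overlap. Ugt1a6b probe scl0394435.7_126-S differed by 0.46 ± 0.21 and Ugt1a7c probe scl00394432.2_137-S by 0.48 ± 0.22, with overlap. Neither Ugt1a9 probe was detected on any adipose array. Aldh3b1 differed by 0.53 ± 0.23 and Aldh1a1 by 0.22 ± 0.30, with overlap.

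Some cell type markers also differed in adipose tissue, though none was called. Fibroblast markers were above 0 in 5 of 6 tested probes (median 1.01, summed intensity 39282 to 100438 on KO and 20252 to 53298 on WT arrays) and macrophage markers in 5 of 5 (median 0.67, 8977 to 24272 on KO and 5165 to 15315 on WT arrays, Itgam not detected). Of these, 2 fibroblast probes and 1 macrophage probe had groups that did not overlap. The fibroblast probe below 0 was that of Col1a2, at -0.53 ± 0.31. Both summed ranges overlapped between genotypes. Adipocyte markers were above 0 in 2 of 4 (152446 to 161405 on KO, 138701 to 176255 on WT arrays). Cox7a1, a marker of brown adipocytes, read 718.5 to 775.3 on KO and 1220 to 1588 on WT arrays in raw intensity (-1.09 ± 0.18, limma adjusted p = 0.103), and Eng, a marker of endothelium, differed by -0.77 ± 0.09 (limma adjusted p = 0.0507), both without overlap. The other tested endothelial gene, Pecam1, differed by -0.13 ± 0.27 with overlap. Mup1, a major urinary protein gene that male liver expresses more, was higher without overlap at 3.89 ± 0.47 (limma adjusted p = 0.0590). Mup3 of the same list differed by 0.35 ± 0.58 with overlap. The part of any of these in the member differences was not tested. Among NRF2 targets outside the set 8 of 11 probes were below 0 and 0 were called.

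In MEFs the member differences ranged from -0.20 to 0.15 with the processing used here. Aldh1a1, at -0.14, was -0.93 with background from the median and -1.44 with the authors' normalized values, and was called under neither. None of 20 tested probes was called, with 2 (10%) at an unadjusted p under 0.05, while of all 14050 tested probes 0.448% were called and 10.7% had such a p. The groups did not overlap for 3 probes (15%), against 16.9% of all. Akr1b3 read 11.16, 11.33 and 11.39 on KO and 11.51, 11.44 and 11.52 on WT arrays (-0.20 ± 0.07, limma adjusted p = 0.365). Aldh1a1 read 7.03, 7.11 and 7.15 on KO and 7.21, 7.22 and 7.28 on WT arrays (-0.14 ± 0.04, limma adjusted p = 0.324). Akr1a1 was higher by 0.11 ± 0.05 without overlap. Of the fibroblast markers in MEFs 3 of 6 tested probes were above 0, and Col1a2 was called lower at -3.06 ± 0.24 (limma adjusted p = 0.0182). Col1a1 differed by 0.07 ± 0.15 with overlap. The part of these markers in the member differences was not tested. Cyp1b1, the single tested target of the aryl hydrocarbon receptor outside the set, was called lower in MEFs at -1.04 ± 0.09 (limma adjusted p = 0.0233). In adipose tissue it was higher without overlap at 1.22 ± 0.33 and was not called (limma adjusted p = 0.239).

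**Figure D3:**
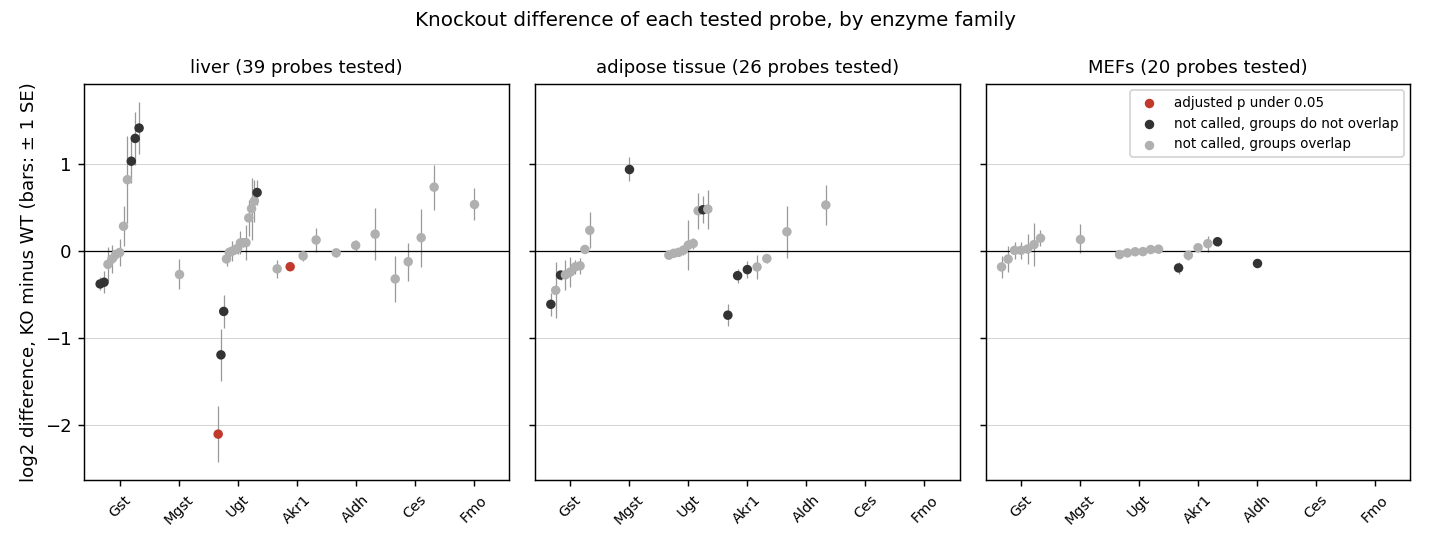
Log2 difference, KO minus WT (vertical axis, points with bars of ± 1 SE), of each tested member probe by enzyme family (horizontal axis) in liver, adipose tissue and MEFs; red points have an adjusted p under 0.05, black points do not but have groups that do not overlap, and grey points overlap. The liver differences span -2.11 to 1.41, those of adipose tissue -0.74 to 0.95 and those of MEFs -0.20 to 0.15.

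The difference between tissues was tested directly, as the knockout difference in a tissue minus that in another, over probes detected in either. Between liver and adipose tissue it was called for 9 of 42 member probes (21.4%), against 4.88% of all 17592 probes. Of the 9, 5 were tested in liver alone of the 2 tissues, so their contrast largely repeats the liver difference. Among probes tested in both, 4 of 23 members (17.4%) were called, Gstm1, Mgst3, Akr1b10 and Gsta2, against 4.97% of all probes. Gsta2 was dim in adipose tissue, detected on 3 of 6 arrays (mean raw intensity 232.5 on KO and 218.3 on WT arrays). Akr1b10 was dim in liver (raw 151 to 182.5). The contrasts of Gsta2 and Akr1b10 thus largely repeat the difference in the brighter tissue. Gstm1 had opposite signs, 1.03 in liver and -0.61 in adipose tissue, and the knockout difference was 1.65 ± 0.27 higher in liver (limma adjusted p = 0.00261). Mgst3 was opposite the other way, -0.27 in liver and 0.95 in adipose tissue, a difference of -1.21 ± 0.25 (limma adjusted p = 0.0118). Akr1b10 was close to 0 in liver and -0.74 in adipose tissue, a difference of 0.68 ± 0.14 (limma adjusted p = 0.0130). The Mgst3 call was lost with median centring (adjusted p = 0.0748) and with the authors' normalized values (0.106), which also put the Akr1b10 difference at 0.14 (0.910), 1 of the 3 of 20 alternatives in which its call was lost.

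The other 6 called probes were those of Gsta1, Gsta2, Ugt2b35, Ugt1a10 and Ugt1a9 (2 probes), which differed between genotypes in liver. Of these, Gsta2 alone passed the detection filter in adipose tissue, and the others were below it there. In liver the Ugt1a10 probe and the second Ugt1a9 probe passed it through the WT arrays alone. The call between liver and adipose tissue was lost in 7 of 16 alternatives for the second Ugt1a9 probe, in 2 of 16 for Ugt1a10 and in 2 of 20 each for Gsta2 and Ugt2b35. Between liver and MEFs the same 6 probes and Gstm1 were called, 7 of 40 (17.5%), against 4.3% of all 16236 probes. The probes of Gsta1, Gsta2, Ugt1a10 and Ugt1a9 passed the filter in liver and not in MEFs, so their contrasts largely repeat the liver difference. Of members tested in both liver and MEFs, 2 of 19 (10.5%) were called, Gstm1 and Ugt2b35, against 3.99% of all probes. Ugt2b35 was dim in MEFs (raw 135 to 160, difference -0.010), so its contrast also largely repeats the liver difference. Here the call of Gstm1 was lost in 15 of 20 alternatives, that of the second Ugt1a9 probe in 11 of 16 and that of Ugt1a10 in 7 of 16, leaving out single arrays among them. Between adipose tissue and MEFs 1 of 28 (3.57%) was called, Akr1b10, at -0.82 ± 0.14 (limma adjusted p = 0.00597, and 0.484 with the authors' values), against 3.15% of all 18053 probes. It was also the 1 called of 18 members tested in both (5.56%), against 3.24% of all probes. Liver and adipose tissue also differed in hours without food.

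**Figure D4:**
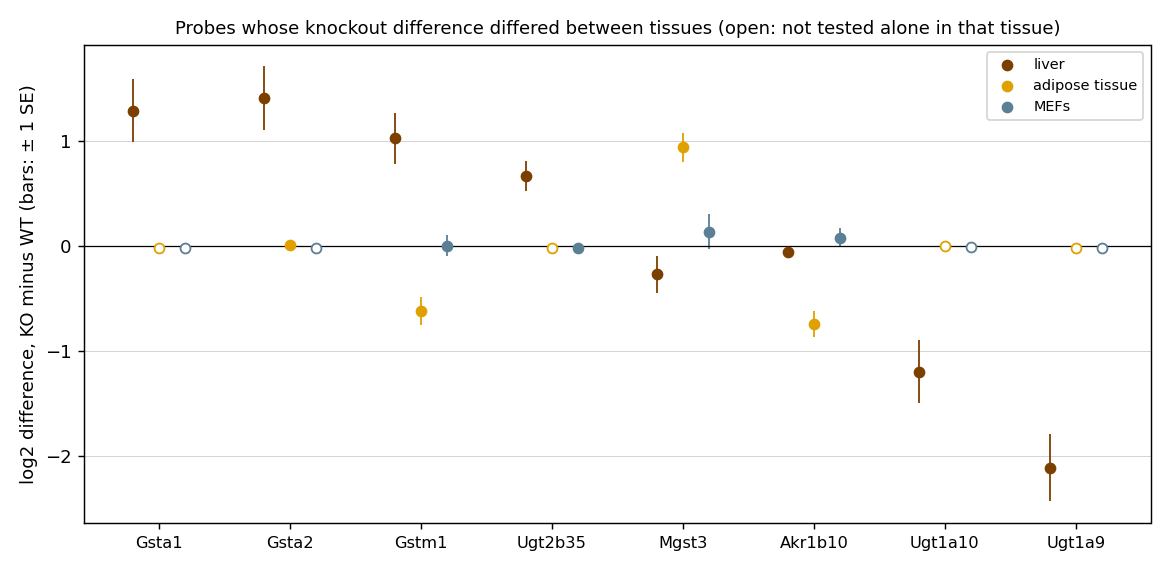
Log2 difference, KO minus WT (vertical axis, bars ± 1 SE), of 8 probes whose knockout difference was called as differing between tissues, in liver, adipose tissue and MEFs; open points mark tissues where the probe did not pass the detection filter. Gstm1 and Mgst3 lie on opposite sides of 0 in liver and adipose tissue, and Ugt1a9 stands at -2.11 in liver and near 0 elsewhere.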

How the data were processed

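Total RNA of 18 samples was labelled with biotin and hybridised to Illumina Mouse-6 V1 BeadChips. Per the file headers, the deposited intensities are linear average bead signals exported by BeadStudio 1.5.1.3 with no normalization, and the deposited detection p-value of each probe comes with them. The authors' normalized intensities form a second table; per the submitters' processing notes lumi, RMA, affy and limma were used, without versions or roles.

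Intensities were background-corrected and quantile-normalized over the 6 arrays of a tissue with limma 3.58.1 (neqc, offset 16, negative controls inferred from detection p) in R 4.3.3, and 60 control probes were left out. Probes with detection p under 0.05 on at least 3 of 6 arrays were tested with lmFit and eBayes on the log2 scale, KO against WT within each tissue, with Benjamini-Hochberg adjustment over all tested probes. Differences between tissues were tested as interaction contrasts in a fit of all 18 arrays, each tissue normalized alone. The test was checked on simulated data.

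Gene names are inferred. The table gives probe identifiers; the number after scl and 1 or 2 zeros was taken for an NCBI gene identifier, and 82.6% of 11868 such numbers matched a RefSeq mouse gene (GRCm38.p6), against 41.1 to 46.2% for shifted numbers. Numbers with no zero matched at the chance rate, so 9 further probes that would match by number were not used. Probes of a gene are reported singly. RefSeq promoters were found for 35 of 42 genes.

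Background spread was 112.4 to 507 intensity units by the moment estimate and 11.71 to 22.98 by the median absolute deviation, so the correction compresses differences of dim probes; the number of arrays limits precision. Arrays of the same tissue correlated at 0.947 to 0.995, and no pair was identical. Deviations of same-numbered KO and WT arrays correlated at 0.101, 0.227 and 0.238 in MEFs, and at 0.227, 0.234 and -0.103 in liver. MEF KO replicate 1 correlated more with WT replicate 2 (0.126) than with WT replicate 1. No label says that the numbers pair arrays, and the check does not settle it. The main tests were therefore unpaired, and the replicate number served as a block only in an alternative.

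Genes named are Cav1, called members, members with unadjusted p under 0.05 and no overlap, the largest difference of each family, probes detected in all arrays of 1 genotype and none of the other, and up to 2 genes of each list. Other members and list genes named for completeness were chosen after their values were seen. Members and gene lists were chosen with earlier results of these data known.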

Additional observations from a re-analysis of the deposited data

Results flagged for a closer look

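The knockout difference (KO minus WT, log2) of these probes differed between tissues by the interaction test, with limma's p adjusted over all tested probes. Between liver and adipose tissue the differences were 1.65 for Gstm1, 1.40 for Gsta2, 1.304 for Gsta1, 0.69 for Ugt2b35, 0.68 for Akr1b10, -1.20 for Ugt1a10, -1.21 for Mgst3, and -2.10 and -0.70 for the 2 Ugt1a9 probes, as liver minus adipose tissue. Between liver and MEFs they were 1.43 for Gsta2, 1.31 for Gsta1, 1.03 for Gstm1, 0.68 for Ugt2b35, -1.19 for Ugt1a10, and -2.09 and -0.69 for the 2 Ugt1a9 probes, as liver minus MEFs. Between adipose tissue and MEFs Akr1b10 differed by -0.82.

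Gsta1, Ugt1a10 and Ugt1a9 were not tested alone in adipose tissue or MEFs, where they did not pass the detection filter. Gstm1, Mgst3 and Akr1b10 were tested in all 3 tissues, Gsta2 in liver and adipose tissue, and Ugt2b35 in liver and MEFs. Groups of 3 arrays are too small for a test of single outlying arrays.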

How the results depend on the processing

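Of 727 recomputed differences of named probes, 80 lost a call, 26 gained a call and 2 changed direction. Of the last, Aldh1a1 in liver ranged from -0.0036 to 0.53 without single arrays, the lowest without KO replicate 3, and Akr1e1 in liver was 0.026 with median centring. The count of called member probes in liver was 2 and moved to 5 with background from the median and median absolute deviation, 8 with no background correction, 4 with the authors' normalized values, 1 with no filter, 1 with detection on all 6 arrays and 5 with trended robust variance. It was 0 with the replicate block, 0 with slide as a block and 0 within the slide that holds both genotypes. The last is the same fit as leaving out WT replicate 1, and the counts of alternatives within liver include it under both names. Without single liver arrays the count of called member probes ranged from 0 to 6: it was 0 without WT replicate 1, 1 without WT replicate 2, 1 without WT replicate 3, 6 without KO replicate 1 and 0 without KO replicate 3. In adipose tissue it was 0, and 1 (Mgst3) with no background correction or with trended robust variance; in MEFs it was 0 in every alternative run.

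Called differences between liver and adipose tissue numbered 9, 5 with the authors' normalized values and 7 to 11 without single arrays. Between liver and MEFs there were 7, 4 each with the median-based background, the authors' values and no filter, and 4 to 8 without single arrays, with 4 when liver WT replicate 1 or 3, MEF WT replicate 2 or 3, or MEF KO replicate 1 or 2 was left out. Between adipose tissue and MEFs the count of 1 was 0 with the median-based background and 0 with the authors' values, and 1 to 3 without single arrays, 3 without adipose KO replicate 5 and 2 without adipose WT replicate 1. The Gstm1 contrast between liver and adipose tissue, and both contrasts of Gsta1 and of Ugt1a9 probe scl00394434.2_40-S, were called in all 20 alternatives. The cause of these shifts was not tested. In MEFs the replicate block changed no member's call, though no label says that the numbers pair the arrays. No paired analysis was possible for adipose tissue because its KO and WT arrays share 1 number. Dim signals limit the liver differences of the second Ugt1a9 probe and of Ugt1a10, which were -4.09 and -5.24 (log2) with the authors' values.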
